A study of Mus musculus with 12 samples.

Results

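Heat shock chaperones were compared in the myocardium of diabetic mice treated with angiotensin IV, untreated diabetic mice and control mice. The genes were chosen by name: 10 chaperones of the cytosol and the mitochondrion, of which 9 could be matched to a probe set through the platform's gene symbols, among 19505 named genes in all. Each of the 9 had 1 probe set. Hspa8, the constitutive cytosolic Hsp70, was not analysed here.

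The DM_AngIV mice were diabetic animals infused with angiotensin IV, a peptide fragment of angiotensin II, at a dose of 2.88 mg/kg/day, starting after week 8 and ending after week 24. The DM mice were diabetic animals labelled as untreated. In both groups streptozotocin, a toxin of pancreatic beta cells, was given into the peritoneum for 5 days, and a fasting glucose of 16.7 mM or more 2 weeks after it was required for inclusion. The NC mice had vehicle injections for 5 days. Tissue was taken at 6 months from 4 mice per group, with 1 array per mouse, and the labels name neither strain nor sex.

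Heat shock chaperones bind unfolded or partly folded proteins and keep them from clumping until they fold or are degraded. Hsp70 proteins, encoded by Hspa1a and Hspa1b, take up clients from J-domain proteins such as Dnajb1 and release them with the help of nucleotide exchange factors such as Hsph1, while Hsp90 (Hsp90aa1) acts on clients that are already largely folded. Small heat shock proteins (Hspb1, Hspb8) hold clients without using ATP and are abundant in heart muscle, where Hspb8 works with Bag3 in the turnover of damaged sarcomere proteins. Hspd1 and its lid Hspe1 form the folding chamber of the mitochondrial matrix. Heat shock factor 1 (HSF1) drives the inducible members by binding heat shock elements, which are inverted repeats of the unit nGAAn.

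Promoter sequences of 8 of the 9 genes were present in the RefSeq promoter table for GRCm38.p6. Of those 8 genes, 6 held a pair of heat shock units, GAANNTTC or TTCNNGAA (each reads the same on both strands), in the 250 bases upstream of a listed start: Hspa1a, Hspa1b, Hsph1, Hspb1, Hspd1 and Hspe1. Over all 32851 promoter windows of that length, 12.8% held such a pair, and of the 11 windows of the 8 genes 7 did. The bases just upstream of the start are shown for 5 of them, since they show how differently the units are arranged in genes that share an activator. Lines run 5′ to 3′ and capitals mark matches to GAANNTTC or TTCNNGAA.
Hspa1a, chr17:34972157-34972281, minus strand: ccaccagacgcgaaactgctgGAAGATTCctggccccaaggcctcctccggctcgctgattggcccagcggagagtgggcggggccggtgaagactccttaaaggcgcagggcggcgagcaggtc
Hspa1b, chr17:34959239-34959363, minus strand: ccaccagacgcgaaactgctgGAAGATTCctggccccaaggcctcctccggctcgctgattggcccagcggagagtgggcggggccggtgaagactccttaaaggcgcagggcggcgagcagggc
Hsph1, chr5:149636337-149636461, minus strand: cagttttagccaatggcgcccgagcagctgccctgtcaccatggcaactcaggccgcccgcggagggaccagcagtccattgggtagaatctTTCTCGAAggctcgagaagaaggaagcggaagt
Hspb1, chr5:135887794-135887918, plus strand: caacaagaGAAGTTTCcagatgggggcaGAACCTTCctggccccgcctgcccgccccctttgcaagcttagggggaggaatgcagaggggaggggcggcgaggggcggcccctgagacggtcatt
Hspe1, chr1:55088023-55088147, plus strand: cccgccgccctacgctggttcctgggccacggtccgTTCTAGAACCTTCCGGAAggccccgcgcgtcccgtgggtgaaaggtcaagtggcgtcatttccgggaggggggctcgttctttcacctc
The Hspe1 window holds overlapping matches that make runs of 3 units (a GAANNTTC and a TTCNNGAA that share 1 unit, in either order). These runs overlap each other and form 1 longer stretch of units. Runs of 3 units were found in 0.466% of all windows. Hspd1 and Hspe1 lie head to head on chromosome 1 with 215 bases between the Hspe1 start and one of the Hspd1 starts, so the same letters lie upstream of both. Hspa1a and Hspa1b, neighbouring copies on chromosome 17, differed at 3 of 250 upstream bases. Their transcripts are near-identical too, so their probes may read both genes and neither value can be assigned to 1 copy with certainty. A match describes the letters only and was not tested as a binding site.

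The values are log2 expression levels. A level at or below 4.96, the 95th percentile of 246 reporter control probe sets, is called not above background. Differences were tested with limma across all 19505 genes and called at a Benjamini-Hochberg adjusted p below 0.05. Levels of different genes come from different probes and are not compared with each other.

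None of the 9 chaperones passed the test in any comparison. In DM against NC, 0 of 9 were called, against 0.0154% of all genes (3 genes), and at an unadjusted p below 0.05 there were 3, all lower in DM (Hspa1b, Hsph1 and Dnajb1), against 4.26% of all genes lower at that level. Groups did not overlap, with DM lower, for 0 of 9, against 2.09% of all genes. In DM_AngIV against DM, 0 of 9 were called, against 0% of all genes, and at an unadjusted p below 0.05 there was 1, Hspb1, lower in DM_AngIV, against 3.5% of all genes lower. In DM_AngIV against NC, 0 of 9 were called, against 1.02% of all genes (198 genes), and at an unadjusted p below 0.05 there were 2, Hsph1 and Hspb1, both lower in DM_AngIV, against 6.53% of all genes lower. The mean of both diabetic groups was also set against NC: 0 of 9 were called, against 0.631% of all genes, and 2 were lower at an unadjusted p below 0.05, against 6.11% of all genes. Both diabetic groups together lay below NC without overlap for 0 of 9, against 0.887% of all genes. Those 2 were Hspa1b and Hsph1. These comparisons share arrays. Hspa1b was above background on 1 array only, and Hsph1 and Dnajb1 both had their highest levels in NC mice 3 and 4. The counts at an unadjusted p below 0.05 are therefore not counts of independent genes, and no excess over all genes is read from them.

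The signs of the differences from NC were nearly all negative. In DM against NC, 8 of 9 log2 differences were below 0, with a median of -0.15, against 50.2% of all genes and a median of -0.00. In DM_AngIV against NC, 9 of 9 were below 0, with a median of -0.20, against 51.5% and -0.01 over all genes. Of these, Hspb8 (-0.003) and Hspd1 (-0.014) lay near 0. Their signs reversed in 5 and 4 of the alternative fits described below. For both diabetic groups against NC all 9 were below 0, against 50.6% of all genes. All members were set against the same NC arrays, and NC mice 3 and 4 stood high for several of them. The signs are therefore not independent of each other, and the counts do not show a decrease of every member. Between DM_AngIV and DM, 4 of 9 were below 0, against 50.2% of all genes, and the median was 0.02. The plot of levels by mouse shows wide NC groups for Hsph1, Hsp90aa1 and Dnajb1, with SDs of 0.49, 0.47 and 0.72, and not for Hspa1a (0.19) or Hspa1b (0.17). The limma fit used a spread shared by all groups for each gene. For Hsph1, Hsp90aa1 and Dnajb1 the standard errors, intervals and p-values therefore rest on equal spread, which their wide NC groups put in doubt. A fit with a separate spread per group was not run.

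**Figure D1:**
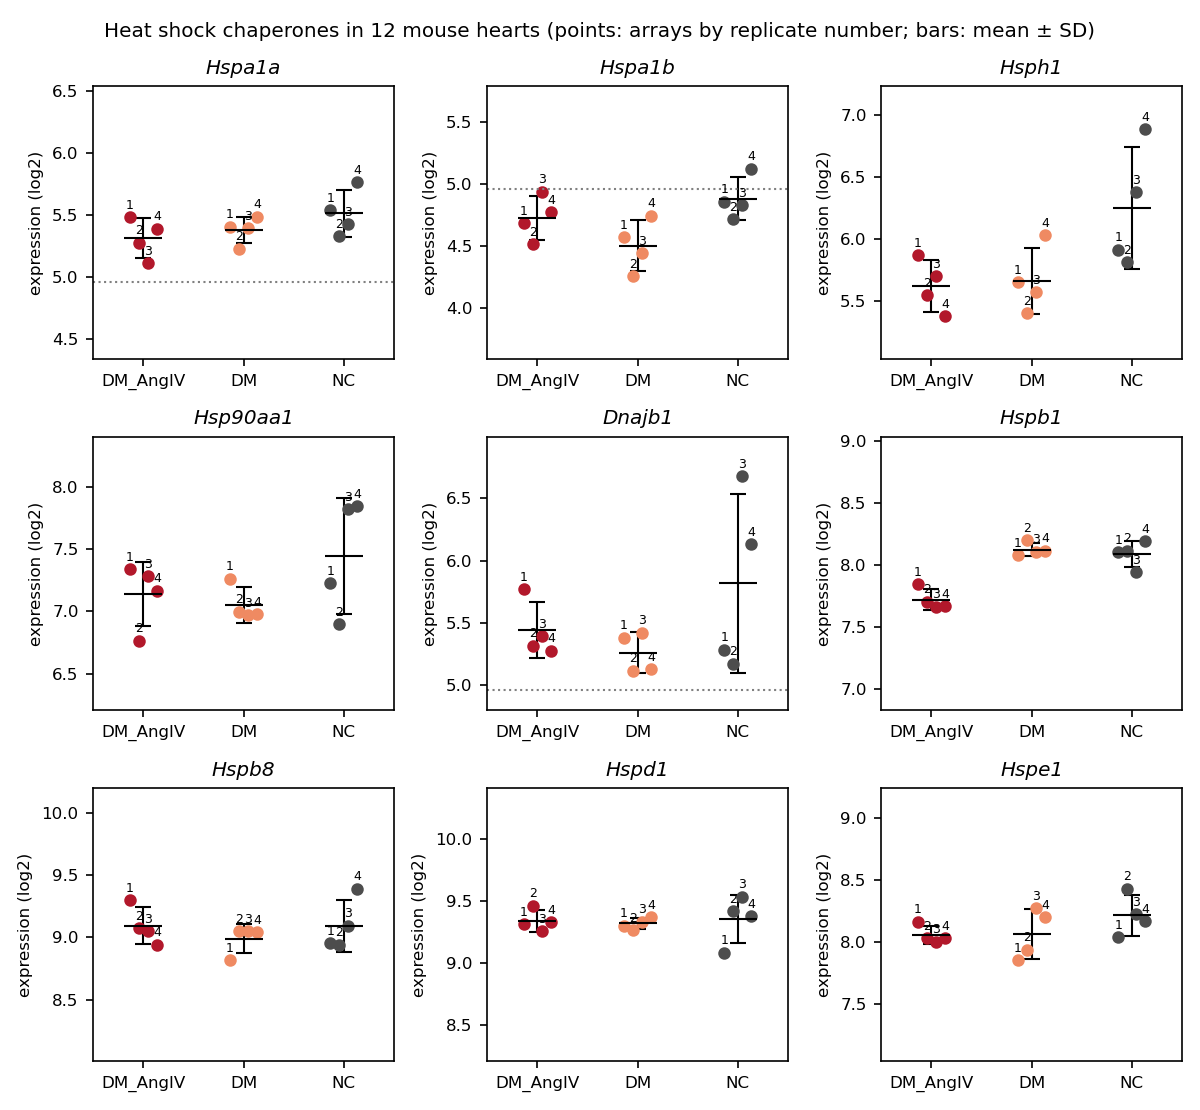
Log2 expression level (vertical axis) of each of the 9 chaperones in every mouse (points), with the group mean and SD, for DM_AngIV, DM and NC (4 mice each); the dotted line is the background level of 4.96. Hspb1 is the gene whose DM_AngIV mice all lie below both other groups, and NC mice 3 and 4 stand high for Hsph1, Hsp90aa1 and Dnajb1.

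Among the Hsp70 genes, Hspa1a had levels of 5.48, 5.28, 5.11 and 5.39 in the DM_AngIV mice, 5.40, 5.23, 5.39 and 5.48 in the DM mice, and 5.54, 5.33, 5.42 and 5.77 in the NC mice. All 3 groups overlapped. The log2 difference was -0.20 for DM_AngIV against NC (95% interval -0.45 to 0.05, limma adjusted p = 0.474) and -0.06 for DM_AngIV against DM (-0.32 to 0.19, limma adjusted p = 0.936). Hspa1b was above background on 1 array, that of NC mouse 4 at 5.12. Its means were 4.73 ± 0.18 in DM_AngIV, 4.50 ± 0.21 in DM and 4.88 ± 0.17 in NC (SD, n = 4 each), all below the background level, so no fold is given, and the limma adjusted p was 0.393 for DM against NC.

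Hsph1, the nucleotide exchange factor (chromosome 5, 149616843 to 149636498, GRCm38.p6), had the most negative difference from NC among the members. It stood at 5.87, 5.55, 5.70 and 5.38 in DM_AngIV, at 5.66, 5.40, 5.57 and 6.03 in DM, and at 5.91, 5.82, 6.38 and 6.89 in NC. NC mice 3 and 4 lay above every diabetic mouse, and NC mice 1 and 2 lay within the range of the diabetic mice. The log2 difference was -0.62 ± 0.20 for DM_AngIV against NC (SE; 95% interval -1.06 to -0.19, limma adjusted p = 0.163) and -0.58 ± 0.20 for DM against NC (-1.02 to -0.15, limma adjusted p = 0.401). For both diabetic groups against NC it was -0.60 ± 0.18 (limma adjusted p = 0.134). Without NC mouse 4 the difference from NC was -0.41 in DM_AngIV and -0.37 in DM, and without NC mouse 2 it was -0.77 and -0.73. DM_AngIV and DM differed by -0.04 (-0.48 to 0.39, limma adjusted p = 0.979).

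Dnajb1, the J-domain partner of Hsp70, had levels of 5.77, 5.31, 5.39 and 5.27 in DM_AngIV, 5.38, 5.11, 5.42 and 5.12 in DM, and 5.28, 5.17, 6.68 and 6.13 in NC. Again NC mice 3 and 4 were above all other mice, while NC mice 1 and 2 were not. The log2 difference was -0.56 ± 0.26 for DM against NC (limma adjusted p = 0.542) and -0.38 ± 0.26 for DM_AngIV against NC (limma adjusted p = 0.536). Leaving out NC mouse 3 gave -0.27 for DM against NC and -0.09 for DM_AngIV against NC, and leaving out NC mouse 2 gave -0.77 and -0.59.

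Hsp90aa1, the inducible cytosolic Hsp90, repeated this arrangement. Its levels were 7.34, 6.77, 7.28 and 7.17 in DM_AngIV, 7.27, 6.998, 6.97 and 6.98 in DM, and 7.23, 6.90, 7.82 and 7.85 in NC. The 2 highest values were again those of NC mice 3 and 4. The log2 difference was -0.40 ± 0.19 for DM against NC (95% interval -0.80 to 0.01, limma adjusted p = 0.581) and -0.31 ± 0.19 for DM_AngIV against NC (limma adjusted p = 0.494). Without NC mouse 4 the differences were -0.26 and -0.18, and without NC mouse 2 they were -0.58 and -0.49.

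**Figure D2:**
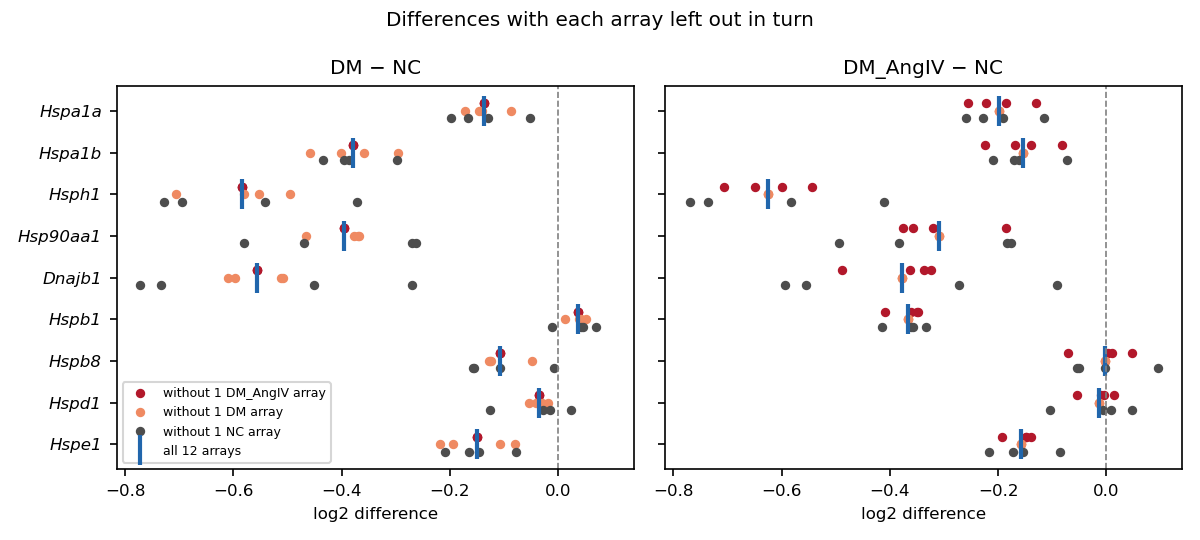
Log2 difference (horizontal axis) of each chaperone in DM against NC (left) and DM_AngIV against NC (right), with all arrays (blue lines) and with each of the 12 arrays left out in turn (points, coloured by the group that lost an array). For Hsph1, Dnajb1 and Hsp90aa1 the differences from NC move toward 0 when NC mouse 3 or 4 is left out and away from 0 when NC mouse 2 is.

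Hspb1, the small heat shock protein that protects actin filaments (chromosome 5, 135887919 to 135889563, GRCm38.p6), had a different arrangement from Hsph1, Dnajb1 and Hsp90aa1. It stood at 7.85, 7.70, 7.66 and 7.67 in DM_AngIV, at 8.08, 8.20, 8.11 and 8.12 in DM, and at 8.11, 8.12, 7.94 and 8.19 in NC. All 4 DM_AngIV mice lay below all 8 others, while DM and NC overlapped. Groups that did not overlap with DM_AngIV lower were found for 1 of 9 members against DM, with 2.2% of all genes, and for 1 of 9 against NC, with 4.2% of all genes. The log2 difference was -0.40 ± 0.10 for DM_AngIV against DM (SE; 95% interval -0.61 to -0.20, limma adjusted p = 0.469) and -0.37 ± 0.10 for DM_AngIV against NC (-0.57 to -0.16, limma adjusted p = 0.0798). For DM against NC it was 0.04 (-0.17 to 0.24, limma adjusted p = 0.957). The difference from NC passed the threshold in 3 alternatives at 0.05: with 8372 genes above background tested (limma adjusted p = 0.0211), with 9753 genes above the median (0.0265) and with a trended, robust prior (0.0203). Calls over all genes rose there too, to 569, 492 and 514, against 198 in the main fit. Hspb1 was not called with the replicate block (limma adjusted p = 0.138) or with only the arrays compared (0.109). With single arrays left out its limma adjusted p lay between 0.0746 and 0.193.

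Hspb8, the partner of Bag3, had means of 9.09 ± 0.15 in DM_AngIV, 8.99 ± 0.12 in DM and 9.10 ± 0.21 in NC (SD, n = 4 each). Its groups overlapped in all comparisons, with a log2 difference of 0.10 for DM_AngIV against DM (95% interval -0.16 to 0.36, limma adjusted p = 0.872). Bag3 itself had a difference of -0.11 for DM_AngIV against NC (limma adjusted p = 0.748).

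Of the mitochondrial chaperonin pair, Hspd1 had differences near 0. Hspd1 averaged 9.34 ± 0.09 in DM_AngIV, 9.32 ± 0.04 in DM and 9.36 ± 0.19 in NC, and its log2 difference was -0.01 for DM_AngIV against NC (95% interval -0.24 to 0.22, limma adjusted p = 0.972). Hspe1 averaged 8.06 ± 0.07 in DM_AngIV, 8.07 ± 0.20 in DM and 8.21 ± 0.16 in NC (SD, n = 4 each for both genes). Its log2 difference from NC was -0.16 in DM_AngIV (-0.41 to 0.10, limma adjusted p = 0.591) and -0.15 in DM (-0.40 to 0.10, limma adjusted p = 0.767). The intervals bound what these arrays could show and do not establish that the levels were equal.

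**Figure D3:**
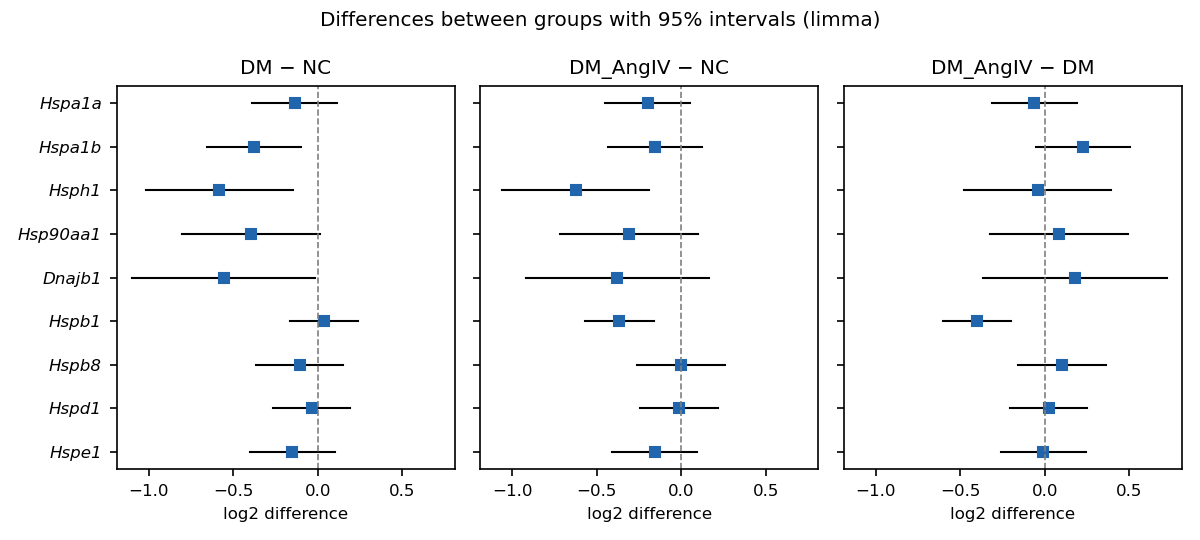
Log2 differences of the 9 chaperones with 95% intervals, for DM against NC, DM_AngIV against NC and DM_AngIV against DM (panels from left to right). Intervals lie wholly below 0 for Hspb1 in both DM_AngIV comparisons and for Hsph1 in both comparisons with NC. The same holds for Hspa1b and Dnajb1 in DM against NC, and none of these passed the adjusted threshold. Each interval uses a spread shared by all groups, although the NC groups of Hsph1 and Dnajb1 were wider than the diabetic groups. Hspa1b was not above background and its values carry no fold.

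The mean of the 9 members was taken per array to see which mice carried the differences. It was 7.09, 6.85, 6.93 and 6.88 in DM_AngIV, 6.92, 6.83, 6.95 and 7.01 in DM, and 6.999, 6.98, 7.33 and 7.43 in NC. NC mice 3 and 4 were the highest of the 12, and NC mice 1 and 2 lay inside the range of the diabetic mice. The group means were 6.94 ± 0.10 in DM_AngIV, 6.93 ± 0.08 in DM and 7.18 ± 0.23 in NC (SD, n = 4 each).

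**Figure D4:**
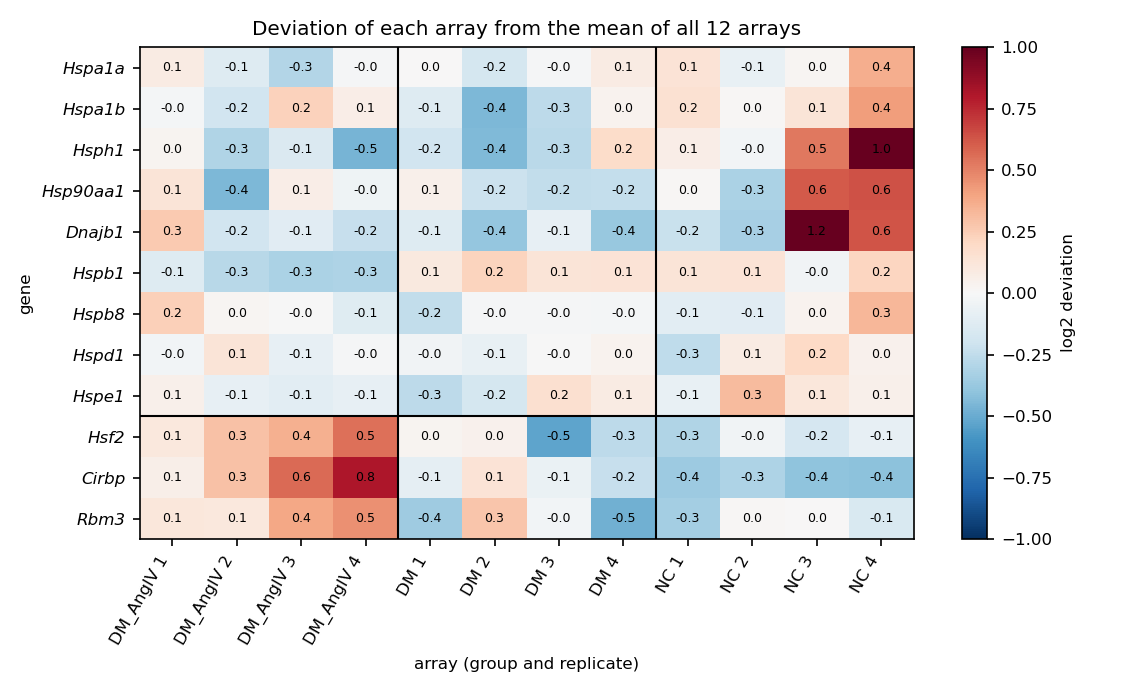
Deviation of each member, and of Hsf2, Cirbp and Rbm3, from its mean over all arrays (log2, colour scale held at ±1), for every mouse by group. The NC block is uneven, with NC mice 3 and 4 high for Hsph1, Hsp90aa1 and Dnajb1.

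Whether members varied together between mice of a group was examined over the 12 arrays with group means removed. Of 36 pairs, 28 correlated positively, 3 had an unadjusted permutation p below 0.05 (100000 permutations within groups, two-sided) and 0 passed after Benjamini-Hochberg adjustment by Pearson or Spearman. Hsp90aa1 and Dnajb1 had r = 0.828 (permutation p = 0.0337, adjusted 0.405) and rho = 0.734 (permutation p = 0.0885), and r was 0.758 without the 2 arrays farthest from the median of the first gene and 0.529 without the NC arrays (n = 8, permutation p = 0.245). Hsph1 and Hspb8 had r = 0.772 (permutation p = 0.0146, adjusted 0.354) and rho = 0.559 (permutation p = 0.108), with r = 0.605 without the 2 arrays farthest in Hsph1 and 0.448 without the NC arrays. Hspd1 and Hspe1, which share a promoter region, had r = 0.467 (permutation p = 0.173) and rho = 0.587 (permutation p = 0.0489, adjusted 0.389). The other pair with an unadjusted p below 0.05, Hspa1b with Hsph1 (r = 0.688, adjusted permutation p = 0.354), rests on a probe that was above background on 1 of 12 arrays, and nothing is read from it. Without the NC arrays, r was 0.247 for Hsph1 with Hsp90aa1, against 0.698 with all arrays, and 0.357 for Hsph1 with Dnajb1, against 0.632.

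**Figure D5:**
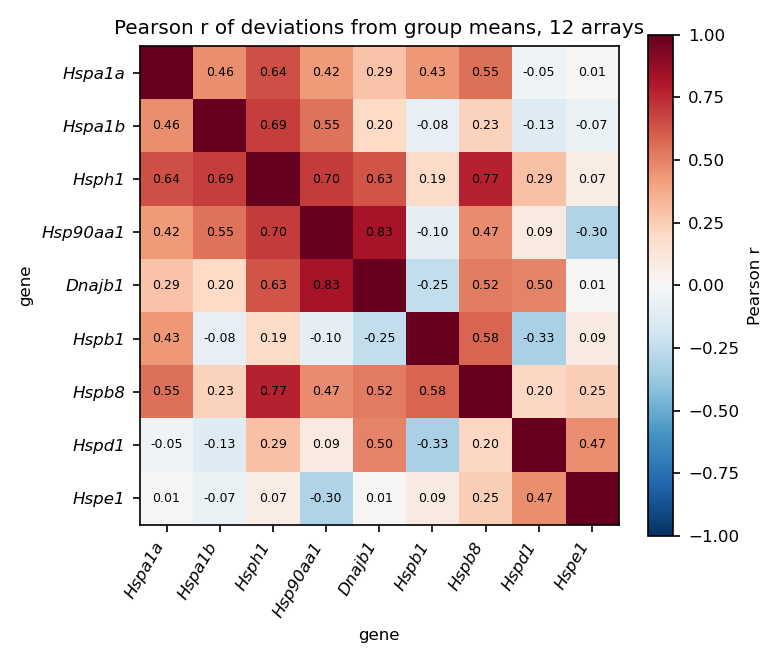
Pearson r between the 9 members over 12 arrays after removal of group means. Hsp90aa1, Dnajb1 and Hsph1 have r of 0.632 to 0.828 with each other, which were 0.247 to 0.529 without the NC arrays (not drawn). Hspb1 and Hspe1 had r near 0 with the mean of the other members, which is not drawn either. Single pairs of theirs were higher, at 0.579 for Hspb1 with Hspb8 and 0.467 for Hspe1 with Hspd1.

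As a description of the same 12 arrays, Hsph1 followed the mean of the other members most closely (r = 0.879), and Hspb1 and Hspe1 did not follow it (r = 0.0328 and 0.0195). Over 8190 ranked genes with group means removed, the genes most like the mean of the 9 members were Tmem38a (r = 0.953), a cation channel of the sarcoplasmic reticulum, Mrpl14 (0.927) and Mrps10 (0.900), both of the mitochondrial ribosome, Ppp4r1 (0.925), Ostc (0.919), Wapl (0.912), Ice1 (0.906) and Strip2 (0.901). The least like were Wee2 (-0.937), Usp40 (-0.913), Nkx6-1 (-0.911) and Zfp579 (-0.909). These genes are the extremes of 8190 over only 12 arrays, where r values this far from 0 can arise without any relation. All points share arrays, no p is given, and no relation to the chaperones is read from them.

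Genes that work with the chaperones were counted from related lists. Of 28 measured cytosolic co-chaperones and HSF1-linked genes of 33 listed, 0 were called in any of the 4 comparisons, and their median log2 difference was -0.06 for DM against NC, 0.00 for DM_AngIV against DM and -0.01 for DM_AngIV against NC. St13, an Hsp70-binding co-chaperone, averaged 7.35 in DM and 6.99 in NC, a difference of 0.36 (limma adjusted p = 0.278). Chordc1, an Hsp90 co-chaperone, averaged 6.14 in DM and 6.64 in NC, a difference of -0.50 (limma adjusted p = 0.287). In DM_AngIV against NC, St13 differed by 0.42 (limma adjusted p = 0.0611) and Chordc1 by -0.47 (0.124). For both diabetic groups against NC the differences were 0.39 for St13 (limma adjusted p = 0.0549) and -0.48 for Chordc1 (0.092). Hsf2, a heat shock factor, averaged 6.57 in DM_AngIV and 6.06 in DM, a difference of 0.51 (limma adjusted p = 0.511) with all 4 DM_AngIV mice above all 4 DM mice. Against NC its difference was 0.47 (limma adjusted p = 0.114). Dnajc7, a co-chaperone of Hsp70 and Hsp90, differed by 0.31 in DM_AngIV against DM (limma adjusted p = 0.629).

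Of 6 small heat shock proteins, 13 of 14 TRiC and prefoldin subunits and 17 of 18 mitochondrial chaperones and proteases measured, 0 were called in any comparison. Hspb3, a muscle small heat shock protein, averaged 4.85 in DM and 5.41 in NC with no overlap (limma adjusted p = 0.34). It was above background on 8 of 12 arrays and its DM mean was not, so no fold is given. Cryab, an abundant small heat shock protein of muscle, differed by -0.08 in DM against NC (limma adjusted p = 0.866). In DM_AngIV against DM, Hspb7 differed by 0.15 (limma adjusted p = 0.836), Cct4, a TRiC subunit, by 0.18 (0.713), Vbp1, a prefoldin subunit, by 0.19 (0.764) and Spg7, a mitochondrial inner membrane protease, by 0.37 (0.629), all from limma. In DM against NC, Cct5 differed by -0.16 (limma adjusted p = 0.665), Pfdn2 by 0.17 (0.72) and Oma1, a stress protease of the inner membrane, by -0.23 (0.525). Hspb11 and Hscb were not above background in the groups compared and carry no fold.

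Of 14 measured endoplasmic reticulum chaperones of 16 listed, 1 fell in DM_AngIV against NC, against 1.02% of all genes called there. It was Serpinh1, the collagen-specific chaperone, at 6.81 ± 0.29 in DM_AngIV and 7.54 ± 0.17 in NC (SD, n = 4 each), a difference of -0.73 ± 0.14 (limma adjusted p = 0.0225). It stood at 7.12 ± 0.13 in DM and also fell in both diabetic groups against NC (-0.58, limma adjusted p = 0.0471), a call that was lost in 13 of 24 alternatives at differences between -0.64 and -0.52, with adjusted p of 0.0666 under the replicate block. With 1 of NC mice 3 and 4 or DM_AngIV mice 2, 3 and 4 left out, its adjusted p in DM_AngIV against NC lay between 0.0572 and 0.0813, at differences of -0.73 to -0.65. Hspa5, the Hsp70 of the endoplasmic reticulum, differed by -0.52 in DM_AngIV against NC (limma adjusted p = 0.0772), and Pdia3, a disulphide isomerase, by -0.20 in DM_AngIV against DM (limma adjusted p = 0.713).

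Of the 2 temperature-dependent RNA-binding proteins, Cirbp rose in DM_AngIV against NC, where 1.02% of all genes were called. It stood at 6.82, 7.05, 7.32 and 7.57 in DM_AngIV, 6.67, 6.89, 6.69 and 6.53 in DM, and 6.40, 6.45, 6.36 and 6.35 in NC. The DM_AngIV mice and the DM mice all lay above the NC mice, without overlap. The difference was 0.80 ± 0.14 in DM_AngIV against NC (limma adjusted p = 0.0137). It was 0.31 in DM against NC (limma adjusted p = 0.537) and 0.49 in DM_AngIV against DM (0.513). Without DM_AngIV mouse 3 the difference in DM_AngIV against NC was 0.76 (limma adjusted p = 0.051). Rbm3, its relative, differed by 0.38 in DM_AngIV against NC (limma adjusted p = 0.265).

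Immediate early genes, induced within minutes of a stimulus, and clock genes were counted beside the chaperones. Of 14 immediate early genes, Ier3 rose (0.74, limma adjusted p = 0.0358) and Dusp1 fell (-0.71, limma adjusted p = 0.0236) in DM_AngIV against NC, where 1.02% of all genes were called, and 0 were called in DM against NC or in DM_AngIV against DM. The call of Ier3 was lost in 10 of 24 alternatives and that of Dusp1 in 9, both with an adjusted p of 0.0519 under the replicate block, and with single arrays left out it reached 0.118 for Ier3 and 0.0813 for Dusp1. Btg2 differed by -0.30 in DM against NC (limma adjusted p = 0.603), and Fos was not above background in DM_AngIV or DM. Of 15 measured clock genes, 5 rose (Per2, Per3, Cry2, Nr1d2 and Tef) and 2 fell (Arntl and Clock) in DM_AngIV against NC, against the same 1.02% of all genes. This list, like the others, was chosen with earlier results of these data known, so the count is a description only. The call of Cry2 was lost in 14 of 24 alternatives, with an adjusted p of 0.0988 under the replicate block, that of Tef in 2, those of Nr1d2 and Clock in 1 each, and those of Per2, Per3 and Arntl in 0. Arntl, the core clock activator, also fell in DM against NC (limma adjusted p = 0.000752), and it was not above background in DM_AngIV or DM, against 5.78 ± 0.17 in NC (SD, n = 4). Per3 differed by 0.82 in DM against NC (limma adjusted p = 0.0985). The part of these genes in the chaperone values was not tested.

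The tissue label was checked against markers. All 10 cardiomyocyte markers were above background, with list means of 11.3 in DM_AngIV, 11.2 in DM and 11.3 in NC, while 1 of 5 skeletal muscle and 1 of 6 adipocyte markers were above it on any array. Smooth muscle and pericyte markers had list means of 6.52 ± 0.17 in DM_AngIV, 6.24 ± 0.23 in DM and 6.64 ± 0.63 in NC (SD, n = 4 each). All 7 were higher in DM_AngIV than in DM by value, with a median log2 difference of 0.29, and the median was -0.55 in DM against NC. Of 6 measured macrophage markers, 5 had values above NC in DM_AngIV and 5 in DM, with medians of 0.28 in both, and 0 markers of either list were called. The part of these markers in the chaperone values was not tested. Among 7 atrial markers, Myl7 was above background on 0 of 4 DM_AngIV arrays, 3 of 4 DM arrays (mice 1, 2 and 4) and 2 of 4 NC arrays (mice 1 and 3). The summed linear level of the 7 ranged from 356 to 992 in DM_AngIV, from 212 to 3488 in DM and from 487 to 4193 in NC. Without those 5 arrays, Hspb1 differed by -0.39 in DM_AngIV against DM (limma adjusted p = 0.738) and by -0.43 in DM_AngIV against NC (limma adjusted p = 0.207), with 4 DM_AngIV, 1 DM and 2 NC arrays left. A p against DM in that subset borrows its spread from the other groups, since the lone DM array has none. Dnajb1 differed there by -0.23 in DM against NC and by -0.21 in DM_AngIV against NC, and Hsph1 by -0.78 and -0.73. Cirbp (0.79, limma adjusted p = 0.162) and Serpinh1 (-0.73, limma adjusted p = 0.182) had differences in DM_AngIV against NC close to those with all arrays but were not called with fewer arrays. In bulk tissue, fewer cells of a type and less RNA per cell cannot be told apart. Array medians lay between 4.12 and 4.19, and pairs of arrays correlated with r between 0.977 and 0.990.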

How the data were processed

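Myocardial RNA of 12 mice was measured on single-colour Affymetrix arrays (6 µg of input RNA, per the labels' protocols). The authors deposited 1 table of log2 values, made by robust multi-array average (RMA) per the submitters' processing notes. The version is not given in the sources used here, and 0 other columns held sample values. Of 29129 probe sets, 19572 had 1 symbol in the platform annotation. For the 55 symbols with several, the one with the highest mean was kept, which left 19505 genes.

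A linear model with a mean per group was fitted over all 12 arrays in limma 3.58.1 (lmFit, then eBayes; R 4.3.3; two-sided, Benjamini-Hochberg over all genes). Pair correlations used 100000 permutations within groups (Python 3.11.15, scipy 1.17.1), and figures matplotlib 3.10.9. The rule named 10 genes, and 9 were measured, which gave 36 pairs. The fit was also tested on simulated data.

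The members and gene lists were chosen with earlier results of these data known. Named besides the members were, per related list, the 2 genes with the smallest unadjusted p in DM against NC and in DM_AngIV against DM, the genes called, and the 8 genes most and 4 least like the members' mean. Alternatives covered the threshold, dim-gene filters, arrays in the fit, replicate block, probe set rule, scaling, array weights, variance prior, an atrial covariate, arrays with atrial signal and each array in turn. The arrays give no read depth; their number limits the precision. The limma p-values set a difference against the spread between these mice, estimated over all 3 groups and with information shared across genes. Those for pairs set a correlation against permutations within groups.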

Additional observations from a re-analysis of the deposited data

Results flagged for a closer look

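In the DM group, 1 mouse stood apart from the other 3 for each of 2 chaperones. Hsp90aa1 was 7.27 on the log2 scale in DM mouse 1, and the other 3 DM mice lay between 6.97 and 6.998. Hspb8 was 8.82 in DM mouse 1, and the others lay between 9.04 and 9.05. In each case the gap was over 0.829 of the group's range, with 30 groups of 4 examined, and chance gives about 1 such group in 20.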

How the results depend on the processing

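Of 860 member differences under the 24 alternatives, 4 became called, 27 changed sign and the rest kept their direction and side of the threshold. The 4 were all Hspb1 in DM_AngIV against NC, so 1 member was called there at an adjusted p threshold of 0.1, without genes below the background percentile, without genes below the median, and with the trended and robust prior. Hspa1b gives no value with the background filter. Sign changes were small. With median centring they were Hspe1 in DM_AngIV against DM (0.0032), Hspb8 (0.011) and Hspd1 (0.00041) in DM_AngIV against NC; with quantile normalization again, Hspd1 in DM_AngIV against DM (-0.0054); with the atrial covariate, the same (-0.054); and without arrays with atrial signal, Hspb1 in DM against NC (-0.046) and Hsph1 in DM_AngIV against DM (0.051). With each array left out, values spanned -0.12 to 0.0058 for Hspa1a, -0.13 to 0.081 for Hsph1, -0.019 to 0.050 for Hspd1 and -0.079 to 0.061 for Hspe1 in DM_AngIV against DM; -0.012 to 0.070 for Hspb1 and -0.13 to 0.024 for Hspd1 in DM against NC; -0.072 to 0.096 for Hspb8 and -0.10 to 0.046 for Hspd1 in DM_AngIV against NC; and -0.11 to 0.044 for Hspb8 and -0.12 to 0.035 for Hspd1 in both diabetic groups against NC. The cause was not tested.

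With a replicate block, 0 of 9 members were called in each comparison, and calls over all genes were 115 against 198 in DM_AngIV against NC and 40 against 123 in both diabetic groups against NC. Deviations of same-numbered samples correlated at -0.098 to 0.17. Differently numbered samples were not set beside them, so whether a number marks a pairing or a batch cannot be told from these values. Over all genes, the calls in DM against NC were 3, and 17 at a threshold of 0.1, 20 with either dim-gene filter, 28 with the trended prior and 0 without arrays with atrial signal; in DM_AngIV against NC they were 198, and 509 at a threshold of 0.1, 569 with the background filter, 492 with the median filter, 514 with the trended prior and 50 without those arrays. In both diabetic groups against NC they were 123, and in the same order 320, 384, 328, 362 and 1, with 71 under array weights. With 1 array left out, the calls were 81 to 302 in DM_AngIV against NC and 2 to 30 in DM against NC, with the 30 without DM mouse 4. In both diabetic groups against NC they ran from 16 without NC mouse 3 to 231 without DM mouse 4. In DM_AngIV against DM, where all arrays gave 0, they were 5 without DM_AngIV mouse 2 and 1 without DM_AngIV mouse 4. The number of arrays limits what could be called, and low probes such as Hspa1b stand near background.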
